A study of Mus musculus with 6 samples.

Results

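Complement is a set of secreted proteins, cell surface receptors and inhibitors that tags microbes, debris and, in brain, synapses for removal. Of the 55401 genes in the count files, 9 chosen by symbol were followed here: the C1q chains C1qa, C1qb and C1qc, the opsonin components C3 and C4b, the receptors C3ar1 and C5ar1, the regulator Cd59a and the C1q-like neuronal gene C1ql3. All 9 were among the 19969 genes with enough counts to be tested. The C1q chains, which microglia make, were kept apart from C3 and C4b.

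Dorsal hippocampal RNA was sequenced from WT mice, littermates of the Ts65Dn line, 4 months old, of which 3 had received Control-ASO and 3 Snhg11-ASO. Antisense oligonucleotides (ASOs) are synthetic strands that bind a matching RNA and lead RNase H to cleave it. Snhg11-ASO targets the long noncoding RNA Snhg11, and Control-ASO is a gapmer of equal length with a scrambled sequence. Each animal was given 50 μg per hemisphere in the dorsal dentate gyrus (DG), and the dorsal part of the hippocampus was taken 3 days later, so all 6 samples carry an injection and an oligonucleotide, and no uninjected hippocampus entered the comparison. The study describes the 3 animals per group whose dorsal hippocampal RNA was taken as male.

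In the classical pathway C1q binds a tagged surface, C4 and then C3 are cleaved, and fragments of C3 stay on the surface as opsonins while the small fragments C3a and C5a act on the receptors encoded by C3ar1 and C5ar1. In healthy brain the C1q chains come mostly from microglia, C4 and C3 are made largely by astrocytes and other glia and are known to be induced in reactive states, and Cd59 protects host cells from the pore that ends the cascade. C1ql3 is a secreted neuronal protein that shares the C1q domain and binds the adhesion receptor Adgrb3 at synapses, and it does not take part in the cascade.

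Between 28951250 and 43997537 read pairs per sample were counted on genes, and values are given as CPM, counts scaled to a library total of 1000000. The targeted Snhg11 RNA stood at 209 to 551 CPM in the controls and 65.4 to 139 CPM after Snhg11-ASO, so that all knockdown samples lay below all controls (log2 fold change -2.13, SE 0.43, adjusted p = 0.395 by the quasi-likelihood test of edgeR). Snhg11-ASO replicate 1 stood apart, with Spearman correlations across genes of 0.955 to 0.959 with the other samples against 0.979 to 0.991 among those. The deposited sample codes of replicate 1 of both groups are of another style than those of replicates 2 and 3, and the labels give no meaning for it. Markers of granule cells and of microglia were present in all samples, with Prox1 at 82.1 to 167 CPM and Csf1r at 53.6 to 137 CPM. Choroid plexus genes, which mark tissue next to the hippocampus, differed widely within groups, with Ttr, their most abundant member, at 12.9 to 1752 CPM in Control-ASO against 37.7 to 1192 CPM in Snhg11-ASO.

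Of the 9 genes, 8 had a log2 fold change above 0 in Snhg11-ASO over Control-ASO (7 with upper-quartile factors or with a genomic span offset, which removes each sample's trend with the length of genes including introns, where Cd59a turned to -0.02), and the median was 0.43 against 0.01 over all genes tested. No gene passed an adjusted p of 0.05 in edgeR, among the 9 or elsewhere (0% of the 19969 genes tested, smallest adjusted p 0.237, Benjamini-Hochberg adjustment over all of them). Leaving out each sample in turn gave calls only without Snhg11-ASO replicate 1, 0.00989% of the genes tested, none of them a member. At an unadjusted p under 0.05, 3 of the 9 were higher in Snhg11-ASO, namely C3, C3ar1 and C5ar1, and none was lower. For all genes tested that share was 3.68% higher and 8.11% in either direction. The 9 were chosen with earlier results of these data known, and some of them ran together over the samples. This share and the later ones are therefore given as descriptions. The count was 1, C3ar1, with that span offset in edgeR. It was also 1, C3ar1, without Control-ASO replicate 2 and without Control-ASO replicate 3. Without Control-ASO replicate 1 it was 2, C3 and C3ar1. Without Snhg11-ASO replicate 1 it was 2, C1qa and C3ar1. There C3 had an unadjusted p of 0.177 and C5ar1 one of 0.266 in edgeR. The same comparison in DESeq2, which uses another test, called 1 of the 9, C3ar1. It called 258 genes in all, or 1.29%, of which those higher in Snhg11-ASO made up 0.496% of all genes tested.

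Same-numbered samples were treated as pairs after a check of these same values, since neither the labels nor the methods give a pairing. Deviations from the group means correlated at 0.179 for number 2 and 0.103 for number 3. Control-ASO replicate 2 with Snhg11-ASO replicate 3 gave 0.188, so the pairing of these numbers is uncertain. In each of the 3 same-numbered pairs 6 genes were higher in Snhg11-ASO, against 17.6% of all genes tested. They were C1qa, C1qc, C3, C4b, C3ar1 and C5ar1. With the replicate number as a block, these 6 had an unadjusted p under 0.05 in edgeR (3.99% of all genes tested were higher at that level) and none of the 9 an adjusted one. DESeq2 with the block, an alternative added after seeing the data, called 3 of the 9, C1qa (adjusted p = 0.0198), C3 (adjusted p = 0.000123) and C3ar1 (adjusted p = 0.0178), each up to 0.979 over the alternatives, where it called 1.53% of all genes tested and 0.711% as higher. With 3 samples in each group the exact permutation test cannot give a p below 0.1, and the p-values measure the spread between these samples.

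**Figure D1:**
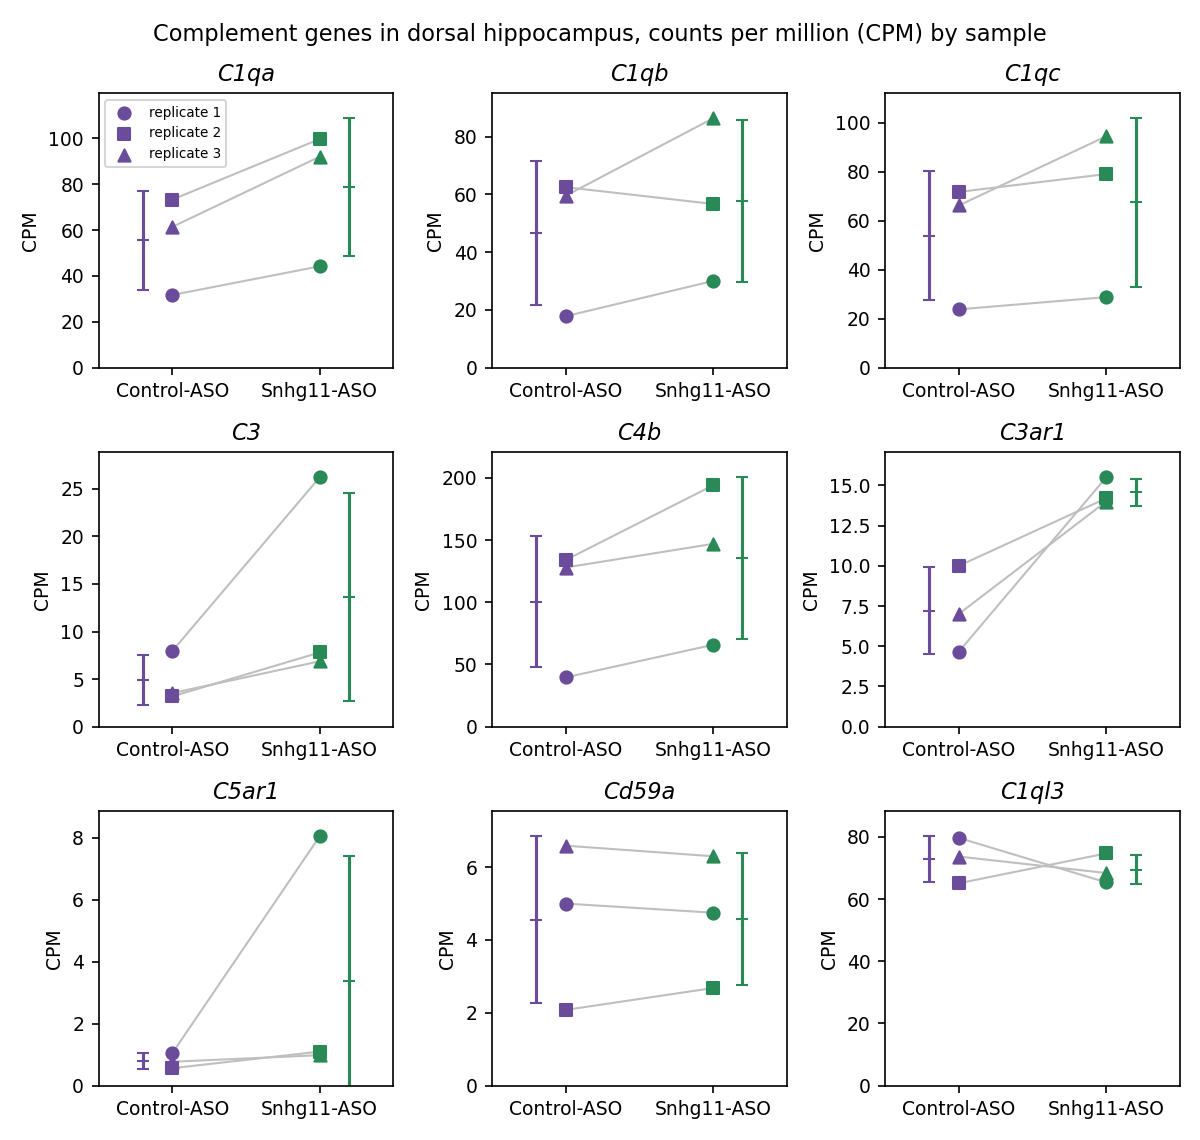
CPM of the 9 genes in each sample. Points are samples, with marker shape for the replicate number (circle 1, square 2, triangle 3), grey lines join same-numbered samples, and side bars give the mean ± SD (n = 3) of Control-ASO in purple and Snhg11-ASO in green. The lower bar of C5ar1 in Snhg11-ASO runs past 0 and ends at the axis. The C3ar1 samples are separated by group, while replicate 1 is lowest for the C1q chains and C4b and highest for C3 and C5ar1 in both groups.

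The C1q chains were at similar CPM to each other and below C4b, which has 5.7 kb of exon against 1.04 to 1.93 kb. Per kilobase of exon the order turned, with Control-ASO means of 27.9 to 53.3 CPM per kb against 17.7 for C4b. C1qa, C1qb and C1qc encode the chains A, B and C of the C1q molecule and lie side by side on the minus strand of chromosome 4 (GRCm38), C1qa (ENSMUSG00000036887) at chr4:136895917-136898803, C1qc (ENSMUSG00000036896) at chr4:136889804-136893065 and C1qb (ENSMUSG00000036905) at chr4:136880129-136886187. Control-ASO replicates 1, 2 and 3 held 31.7, 73.3 and 61.4 CPM of C1qa, and the Snhg11-ASO samples of the same numbers held 44.2, 99.7 and 92.0 CPM. Replicate 1 was the lowest of each group and the groups overlapped, yet within each number the Snhg11-ASO sample was higher, by 1.4, 1.36 and 1.5 times. The means were 55.5 ± 21.4 and 78.7 ± 30.1 CPM (SD, n = 3 each), a log2 fold change of 0.50 (SE 0.39, adjusted p = 0.766 in edgeR, 0.426 with the replicate block). The difference of the means was of the size of the SDs within groups, and without Control-ASO replicate 1 the log2 fold change was 0.22.

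C1qb was counted at 17.8, 62.5 and 59.5 CPM in Control-ASO and at 30.0, 56.7 and 86.3 CPM in Snhg11-ASO, in the order of the replicate numbers. The groups overlapped, and in pair 2 the Snhg11-ASO sample was the lower one, at 0.908 times its control. For C1qc the values were 23.8, 71.7 and 66.2 CPM in Control-ASO against 28.8, 79.0 and 94.4 CPM in Snhg11-ASO, again with replicate 1 lowest on both sides. Their log2 fold changes of 0.31 (SE 0.53) and 0.32 (SE 0.52) were smaller than their standard errors (adjusted p = 0.892 and 0.887 in edgeR), and without Control-ASO replicate 1 both turned to -0.08 and -0.04. C1qa ran with C1qb and C1qc over the 6 samples (Pearson r = 0.92 and 0.955 of log2 CPM, given as a description, since the samples share their replicate pattern). The chains did not stay in 1 proportion, since C1qa was 1.78, 1.17 and 1.03 times C1qb in Control-ASO against 1.47, 1.76 and 1.07 times in Snhg11-ASO.

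The C1q chains were set against 15 other microglial genes, among them Csf1r, the receptor on which microglial survival rests. The summed level of these 15 genes was 342, 646 and 491 CPM in Control-ASO against 196, 538 and 671 CPM in Snhg11-ASO. Of the 15 genes, 5 were higher and 10 lower in Snhg11-ASO, none with an unadjusted p under 0.05, with a median log2 fold change of -0.13, and Csf1r, for example, stood at 82.1, 137 and 93.8 against 53.6, 93.4 and 119 CPM. The summed C1q chains came to 0.215, 0.321 and 0.381 of the microglial sum in Control-ASO and to 0.525, 0.437 and 0.406 in Snhg11-ASO. All Snhg11-ASO samples therefore had more C1q RNA per RNA of these 15 genes than any control, with replicate 3 close together on both sides. The 15 genes did not move alike in Snhg11-ASO replicate 1. There P2ry12 stood at 5.46 against 23.8 CPM in Control-ASO replicate 1, and Tyrobp at 15.2 against 11.4 CPM. The ratio in that sample thus depends on the marker genes taken. In bulk tissue, fewer cells of a type and less RNA per cell cannot be told apart. Of 10 genes known to be induced in activated microglia, 9 were higher in Snhg11-ASO, 5 with an unadjusted p under 0.05 (3.68% of all genes tested) and 5 with groups that did not overlap (7.73% of all genes tested), at a median log2 fold change of 0.67. One of them, the integrin Itgax, is also in the list of complement receptors. Their most abundant genes overlapped between groups, with Apoe at 570 to 647 and 306 to 593 CPM and Ctsd at 104 to 344 and 128 to 372 CPM.

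C3 is the component on which all activation routes of complement meet, and its fragments are the main opsonins. The gene (ENSMUSG00000024164) lies at chr17:57203970-57228136 on the minus strand. C3 was counted at 7.95, 3.18 and 3.53 CPM in Control-ASO, from 234, 107 and 119 read pairs. In Snhg11-ASO it was counted at 26.2, 7.8 and 6.87 CPM, from 1000, 326 and 300 read pairs. Here replicate 1 was the highest of each group, opposite to the C1q chains, and Snhg11-ASO replicate 1 alone held more than the other knockdown samples together. Control-ASO replicate 1 lay above Snhg11-ASO replicates 2 and 3 only by a little, so the groups overlapped, while within each number the Snhg11-ASO sample was higher by 3.3, 2.45 and 1.95 times. The means were 4.89 ± 2.66 and 13.6 ± 10.9 CPM (SD, n = 3 each). The log2 fold change of 1.48 (SE 0.61) had an unadjusted p of 0.0458 and an adjusted p of 0.601 in edgeR, and 1.33 (SE 0.2) with an adjusted p of 0.426 with the replicate block. Without Snhg11-ASO replicate 1 it was 0.59 (adjusted p = 0.65), and with replicates 2 and 3 of both groups alone, an alternative chosen after seeing the data, 1.12 (adjusted p = 0.293).

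C4b (ENSMUSG00000073418, chr17:34728380-34743882, minus strand) encodes C4, which forms with C2 the enzyme that cleaves C3. It was counted at 39.6, 134 and 128 CPM in Control-ASO and at 65.8, 194 and 147 CPM in Snhg11-ASO. The order of the replicates was that of the C1q chains and not that of C3, with replicate 1 the lowest of each group. Within each number the Snhg11-ASO sample was higher, by 1.66, 1.44 and 1.14 times, while the means of 101 ± 53.1 and 136 ± 64.8 CPM (SD, n = 3 each) differed by less than the spread within a group (log2 fold change 0.43, SE 0.53, adjusted p = 0.851 in edgeR). Without Control-ASO replicate 1 the log2 fold change was 0.04. C4b and its neighbour C4a (ENSMUSG00000015451, chr17:34809092-34823464, minus strand) are near-identical copies, and 34.6% of the 50-base stretches of C4b transcripts occur in C4a as well. Read pairs that fit both places are left out of the counts, so C4b and C4a are both undercounted and a part of either value is uncertain. C4a stood at 5.27, 3.66 and 3.86 CPM in Control-ASO against 7.06, 1.56 and 4.51 CPM in Snhg11-ASO, which overlapped (log2 fold change 0.04, adjusted p = 0.989 in edgeR).

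Set against the geometric mean of the C1q chains, C4b kept a narrow ratio while C3 did not. The ratios are of CPM and are not scaled for exon length. C4b came to 1.67, 1.95 and 2.06 times C1q in Control-ASO against 1.95, 2.54 and 1.61 times in Snhg11-ASO, with no order by group. C3 came to 33.4%, 4.61% and 5.67% of C1q in Control-ASO and to 77.8%, 10.2% and 7.56% in Snhg11-ASO. The share was several times higher in replicate 1 than in the other replicates of the same group, and within each number it was higher in Snhg11-ASO. Against C4b, C3 came to 20.1%, 2.37% and 2.75% in Control-ASO and to 39.8%, 4.02% and 4.68% in Snhg11-ASO. Over the 6 samples C1qa and C4b had a Pearson r of 0.974 in log2 CPM, C1qa and C3 one of -0.368, and C3 and C4b one of -0.452, values that describe these samples and the replicate pattern they share.

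**Figure D2:**
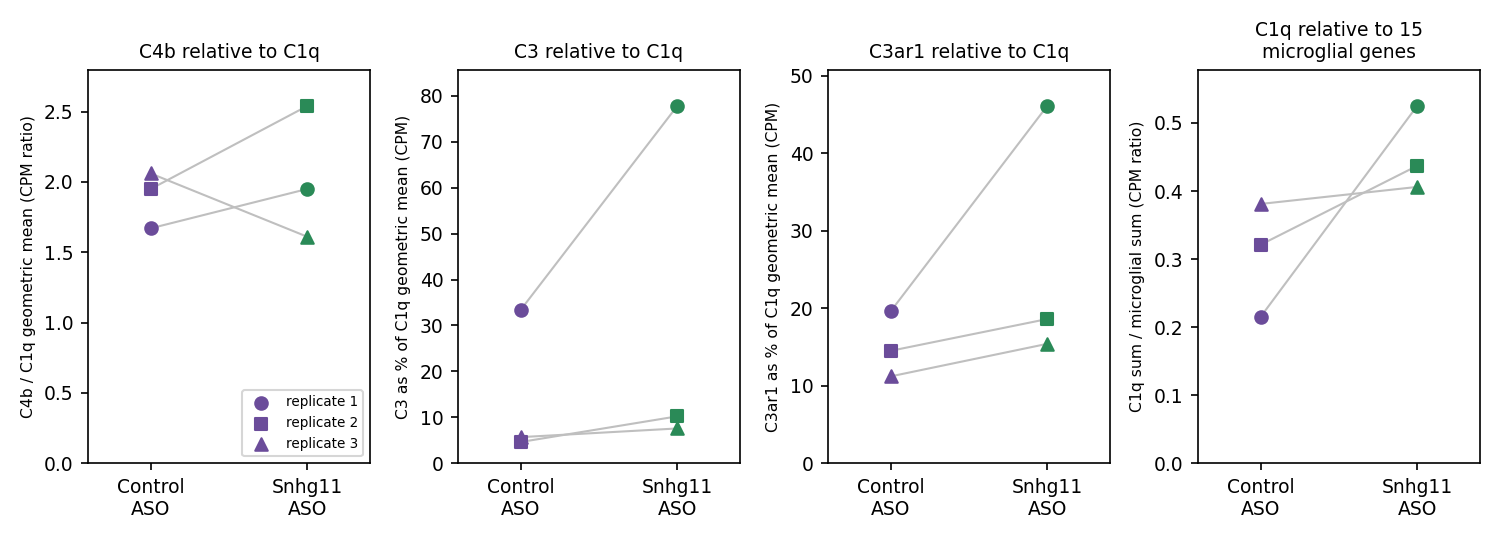
Ratios of CPM in each sample, Control-ASO in purple and Snhg11-ASO in green, with marker shape for the replicate number and grey lines joining same-numbered samples. From left to right are C4b over the C1q geometric mean, C3 and C3ar1 as a percentage of it, and the C1q sum over the sum of 15 microglial genes. C4b over C1q stays between 1.61 and 2.54, and C3 reaches 33.4% and 77.8% of C1q in replicate 1. The C1q sum over that of the 15 genes is above 0.381 only in Snhg11-ASO.

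C3ar1 encodes the receptor for C3a, carried in brain mainly by microglia and other myeloid cells (ENSMUSG00000040552, chr6:122847138-122856161, minus strand). It was counted at 4.66, 10 and 7.01 CPM in Control-ASO and at 15.5, 14.2 and 14.0 CPM in Snhg11-ASO. All Snhg11-ASO samples lay above all controls and close to each other, and C3ar1 was the only gene of the 9 whose groups did not overlap (7.73% of all genes tested did so with Snhg11-ASO higher, and 15.4% in either direction). The means were 7.23 ± 2.69 and 14.6 ± 0.824 CPM (SD, n = 3 each), with a p of 0.1 in the exact permutation test, two-sided, which is the lowest that 3 against 3 can give. Its log2 fold change was 1.01 (SE 0.27), with an unadjusted p of 0.00694 and an adjusted p of 0.492 in edgeR and an adjusted p of 0.0361 in DESeq2 (0.0178 to 0.979 over 20 alternatives). It stayed between 0.77 and 1.32 with each sample left out in turn. Relative to the C1q chains, C3ar1 came to 19.6%, 14.5% and 11.2% in Control-ASO against 46.1%, 18.6% and 15.4% in Snhg11-ASO, where Control-ASO replicate 1 lay above Snhg11-ASO replicates 2 and 3.

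C5ar1 encodes the receptor for C5a, carried by neutrophils, monocytes and microglia (ENSMUSG00000049130, chr7:16246743-16259540, minus strand), and was the least abundant of the 9. It was counted at 1.05, 0.565 and 0.772 CPM in Control-ASO and at 8.05, 1.1 and 0.985 CPM in Snhg11-ASO, from 31, 19 and 26 and from 307, 46 and 43 read pairs. Snhg11-ASO replicate 1 stood far above the other 5 samples, and Snhg11-ASO replicate 3 lay below Control-ASO replicate 1. The log2 fold change of 2.08 (SE 0.87, unadjusted p = 0.0479, adjusted p = 0.609 in edgeR) was 0.39 without Snhg11-ASO replicate 1 (adjusted p = 0.724). The share of C5ar1 in C3ar1 was 22.6%, 5.64% and 11.0% in Control-ASO against 51.9%, 7.73% and 7.04% in Snhg11-ASO.

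The library in which C3 and C5ar1 were highest also stood out in markers of blood and border cells. The summed level of 12 genes of macrophages, monocytes and neutrophils was 29.2 to 43.2 CPM in Control-ASO, 158 CPM in Snhg11-ASO replicate 1 and 37 to 43 CPM in the other knockdown samples. All 12 had a log2 fold change above 0 (median 1.36), 2 with an unadjusted p under 0.05 in edgeR (3.68% of all genes tested). Only 3 were higher in each of the 3 same-numbered pairs (17.6% of all genes tested). Groups did not overlap for 1 (7.73% of all genes tested), and none was at 0 in all samples. F13a1, a transglutaminase of monocytes and macrophages, stood at 69.5 CPM in Snhg11-ASO replicate 1 and at no more than 5.23 CPM elsewhere, whereas Lyz2, the lysozyme of myeloid cells, stood at 16.1 to 24.5 CPM in Control-ASO against 19.7 to 29.5 CPM in Snhg11-ASO. The part of these cells in the C3 and C5ar1 values was not tested. Without that library the log2 fold change of C3ar1 was 0.96 and that of C1qa 0.79.

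Genes of reactive astrocytes were higher in Snhg11-ASO, while general astrocyte markers took no common direction. Of 10 genes induced in reactive astrocytes, all had higher values in Snhg11-ASO, 7 of them with an unadjusted p under 0.05 (3.68% of all genes tested) and 7 with groups that did not overlap (7.73%), at a median log2 fold change of 1.34. Serpina3n, a protease inhibitor of this state, stood at 68.9, 183 and 137 CPM in Control-ASO and at 445, 259 and 287 CPM in Snhg11-ASO (log2 fold change 1.35, unadjusted p = 0.00798). Gfap, their intermediate filament protein, stood at 417, 1984 and 1398 CPM in Control-ASO and at 948, 2375 and 2486 CPM in Snhg11-ASO, in the replicate order of C1qa and C4b. Of 9 general astrocyte markers, 4 were higher and 5 lower, at a median of -0.02, with the glutamate transporter Slc1a2 at 3234 to 3535 CPM in Control-ASO against 2494 to 3162 CPM in Snhg11-ASO. The part of these cells in the C3 and C4b values was not tested.

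Sequences could be printed only for members whose RefSeq start lies within 20 bases of the GENCODE one. C1qa and C4b had no RefSeq start to use, and Cd59a met the rule but is not shown. Given here are the stretches just before the start sites of C1qb, C3 and C3ar1, a C1q chain, an opsonin and a receptor. They are RefSeq sequences on GRCm38.p6, 250 bases that end at the base before the annotated start, all on the minus strand and written 5′ to 3′ in the direction of transcription: C1qb at chr4:136886201-136886450, C3 at chr17:57228137-57228386 and C3ar1 at chr6:122856158-122856407. Capitals mark matches, on either strand, to the ETS-type letters AGGAAG in C1qb, to the C/EBP-type letters TTNNGNAA in C3 and to an NF-kB-type motif in C3ar1 (GGG, 2 bases of any kind, TT, 1 base of any kind and CC), where N is any base.
C1qb: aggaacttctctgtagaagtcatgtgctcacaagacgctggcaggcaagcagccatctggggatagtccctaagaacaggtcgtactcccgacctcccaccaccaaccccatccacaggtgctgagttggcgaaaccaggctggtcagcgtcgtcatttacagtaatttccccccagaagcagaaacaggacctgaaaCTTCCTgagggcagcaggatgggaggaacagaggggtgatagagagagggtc
C3: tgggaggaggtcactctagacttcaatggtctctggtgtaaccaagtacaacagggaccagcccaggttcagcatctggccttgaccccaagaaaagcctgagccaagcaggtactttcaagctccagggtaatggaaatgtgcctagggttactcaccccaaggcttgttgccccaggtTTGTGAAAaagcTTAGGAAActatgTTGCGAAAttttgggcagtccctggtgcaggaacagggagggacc
C3ar1: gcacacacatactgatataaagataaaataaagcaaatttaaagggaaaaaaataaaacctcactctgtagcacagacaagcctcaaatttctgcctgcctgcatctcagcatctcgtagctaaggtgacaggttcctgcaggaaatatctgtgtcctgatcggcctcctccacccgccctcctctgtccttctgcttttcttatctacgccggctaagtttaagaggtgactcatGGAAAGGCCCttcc
C3 held 3 C/EBP-type matches, the nearest beginning 45 bases before the start, and 2.61% of the 32851 mouse windows of this length held 3 or more. C3ar1 held 1 NF-kB-type match beginning 14 bases before the start (4.11% of windows held 1 or more), and C1qb 1 ETS-type match beginning 52 bases before it (29.5% of windows). C/EBP-type letters were found in 36.8% of all windows. The GAS letters TTCNNNGAA (7.02% of windows) and the ISRE motif of GAAA, 2 bases of any kind and GAAA (2.98% of windows), which interferon-activated factors bind, were not found in these 3 windows, while the Cd59a window, not shown, held 1 ISRE match beginning 187 bases before its start. No searched motif overlapped another in them. The matches are descriptions of the letters only.

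Cd59a and C1ql3 were the members whose group means lay closest together. Cd59a (ENSMUSG00000032679, chr2:104095801-104115354, plus strand), which encodes the inhibitor of the terminal pore, stood at 5.0, 2.08 and 6.59 CPM in Control-ASO and at 4.75, 2.68 and 6.3 CPM in Snhg11-ASO. The samples kept the same order in both groups, with replicate 2 lowest, and the ratios within numbers were 0.95, 1.29 and 0.956. The log2 fold change was 0.01 (SE 0.47, adjusted p = 0.998 in edgeR), and 3.87% of its 50-base stretches are shared with its copy Cd59b.

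C1ql3 (ENSMUSG00000049630, chr2:13003457-13011806, minus strand) stood at 79.7, 65.1 and 73.7 CPM in Control-ASO and at 65.4, 74.7 and 68.4 CPM in Snhg11-ASO. The groups overlapped, replicate 1 was highest in the controls and lowest in the knockdown, and the mean was 72.8 ± 7.33 against 69.5 ± 4.72 CPM (SD, n = 3 each). Its log2 fold change of -0.07 had the smallest standard error of the 9, at 0.11 (adjusted p = 0.885 in edgeR). A gene annotated on the opposite strand, Gm37811, covers 61% of the exonic bases of C1ql3, and with both strands counted together C1ql3 kept 896 to 1361 read pairs per sample against 2190 to 3120 on its own strand. The values here are those of its own strand.

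**Figure D3:**
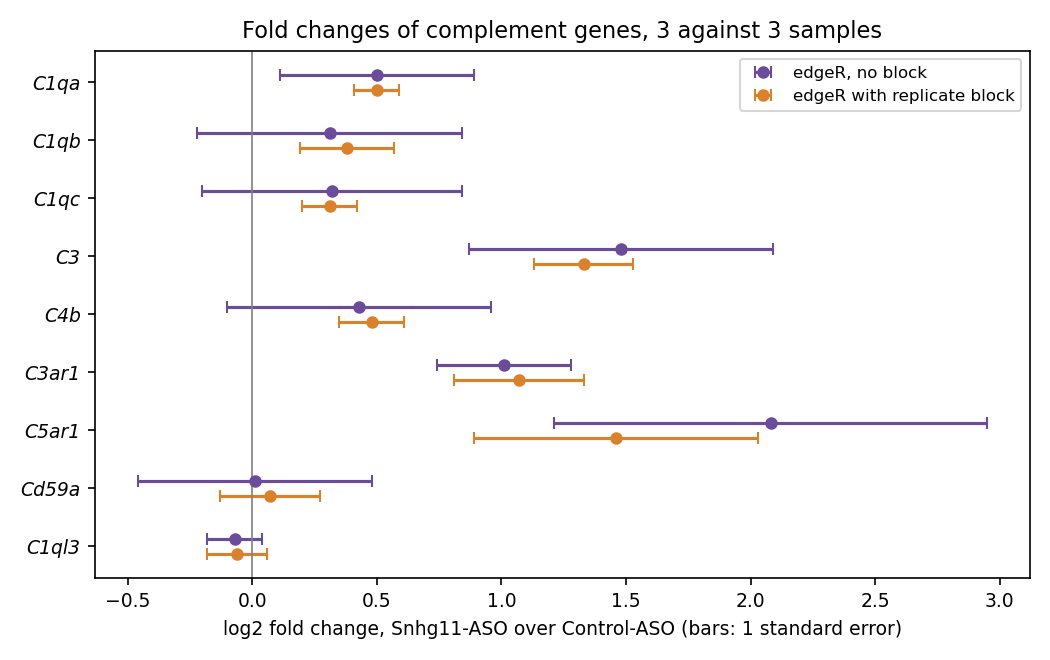
Log2 fold changes of Snhg11-ASO over Control-ASO for the 9 genes from edgeR without (purple) and with (orange) the replicate number as a block. Bars are 1 standard error. The bars shrink with the block for the C1q chains, C3 and C4b, as from 0.61 to 0.2 for C3, while C5ar1 moves from 2.08 to 1.46 and Cd59a and C1ql3 stay near 0.

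Per kilobase of exon, the Control-ASO means ran from C1qa at 53.3 ± 20.6 CPM per kb, C1qb at 42.8 ± 22.9, C1ql3 at 28.7 ± 2.89, C1qc at 27.9 ± 13.6 and C4b at 17.7 ± 9.32 down to Cd59a at 2.52 ± 1.26, C3ar1 at 1.68 ± 0.624, C3 at 0.951 ± 0.517 and C5ar1 at 0.31 ± 0.0955 (SD, n = 3). Neighbours in this order overlapped in their samples except at 2 steps, between C4b and Cd59a and between C3 and C5ar1. C3 was thus far below C4b per length in the control hippocampus. Genes whose log2 CPM ran most closely with a member over the 6 samples were, for C1qa, Aqp4, the water channel of astrocytes (r = 0.996), Mpp1 (0.994) and Stoml1 (0.994). For C3 they were Bin3 (0.992), Ddx20 (0.991) and Esam, an adhesion molecule of endothelium (0.990). For C4b they were Miip (0.984), Ctsz, a lysosomal protease (0.982) and Ccny (0.979), and for C1ql3 they were 1500009L16Rik, Syn2, a synaptic vesicle protein, and Kif26a (0.981 each). They are the closest of 11929 genes searched, a description over 6 samples.

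Other genes of the complement system and of the C1q-like family were read from lists by role, with 67 listed and 46 tested, the members included. The C1q-like family and its receptor supply 8 of the 46, although C1ql3 takes no part in the cascade. Of those 8, 1 was higher and 7 were lower in Snhg11-ASO, 2 of the lower ones at an unadjusted p under 0.05 in edgeR. Of the 46, 27 were higher and 19 lower in Snhg11-ASO, with a median log2 fold change of 0.06. In edgeR, 0 passed an adjusted p of 0.05, while 9 were higher (3.68% of all genes tested) and 4 lower at an unadjusted p under 0.05 (8.11% of all genes tested in either direction). With the genomic span offset 7 were higher and 1 lower, Cbln1. DESeq2 called 3, C1ra, C3ar1 and Csmd1, where it called 1.29% of all genes tested. DESeq2 with the replicate block called 5, which were these, C1qa and C3, where it called 1.53% of all genes tested.

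Initiation of the classical and lectin pathways had 13 tested genes, 10 higher and 3 lower, with a median log2 fold change of 0.31. C1ra, the protease of the C1 complex that starts the cascade, stood at 1.8, 1.04 and 2.61 CPM in Control-ASO and at 6.43, 4.16 and 4.03 CPM in Snhg11-ASO. The groups did not overlap (log2 fold change 1.42, unadjusted p = 0.00704, adjusted p = 0.492 in edgeR and 0.0329 in DESeq2). Masp1, a protease of the lectin pathway, did not overlap either, at 7.44 to 10.3 and 11.5 to 18.2 CPM (log2 fold change 0.64, unadjusted p = 0.0264). C3 and the alternative pathway had 2 tested genes, both with a fold change above 0, and the terminal components 2, of which 1 was above 0.

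Receptors had the highest median of the 6 role lists, 1.01 over 7 genes, of which 6 were above 0 and 5 had an unadjusted p under 0.05 with a higher value in Snhg11-ASO (3.68% of all genes tested). Their summed level was 33.8 to 48.2 CPM in Control-ASO against 57.8 to 127 CPM in Snhg11-ASO, the highest in Snhg11-ASO replicate 1. Itgb2, the shared beta subunit of the complement receptors on leukocytes and microglia, stood at 7.85, 12.7 and 9.62 CPM in Control-ASO and at 27.8, 15.3 and 16.5 CPM in Snhg11-ASO (log2 fold change 0.98, unadjusted p = 0.0103). Its partner Itgax stood at 0.374 to 1.46 and 1.49 to 3.21 CPM (log2 fold change 1.45, unadjusted p = 0.0268), while the partner Itgam, at 5.3 to 10.1 and 6.44 to 18.3 CPM, overlapped (0.68, unadjusted p = 0.166). Cd93, a C-type lectin once taken for a C1q receptor and found on endothelium and myeloid cells, stood at 10.9 to 13.5 CPM in Control-ASO, at 54.7 CPM in Snhg11-ASO replicate 1 and at 17.9 and 14.2 CPM in the others (1.22, unadjusted p = 0.0431). Endothelial markers were also highest in that library, 269 CPM in sum against 133 to 167 CPM in the other samples, and their part in this value was not tested.

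Regulators were split, with 7 of 14 tested genes above 0 and 7 below and a median of -0.02, or 9 above 0 and a median of 0.04 with the genomic span offset. Serping1, the inhibitor of the C1 proteases, stood at 5.2, 7.58 and 11.5 CPM in Control-ASO and at 17.7, 14.2 and 12.5 CPM in Snhg11-ASO (log2 fold change 0.87, unadjusted p = 0.0227). Csmd1, a large membrane protein of neurons with complement control modules, stood at 253, 218 and 222 CPM in Control-ASO and at 161, 135 and 115 CPM in Snhg11-ASO, with no overlap (log2 fold change -0.75, unadjusted p = 0.00102, adjusted p = 0.323 in edgeR and 0.00117 in DESeq2). Its relative Csmd3 was at 117 to 134 and 89.2 to 110 CPM (-0.31, unadjusted p = 0.0228). With the genomic span offset Csmd1 was at -0.31 (unadjusted p = 0.0707) and Csmd3 turned to 0.07 (unadjusted p = 0.383). Cr1l, a mouse inhibitor of C3 cleavage, at 28.9 to 30.5 and 22.4 to 32.7 CPM, overlapped between groups (unadjusted p = 0.771).

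The C1q-like family and its receptor had 1 of 8 tested genes above 0 and a median of -0.29 (3 of 8 and -0.22 with the genomic span offset). Their summed level was 333 to 342 CPM in Control-ASO against 285 to 302 CPM in Snhg11-ASO. Most of that sum was Adgrb3. Adgrb3, the receptor to which C1ql3 binds, stood at 215, 218 and 206 CPM in Control-ASO and at 184, 184 and 175 CPM in Snhg11-ASO, with no overlap (log2 fold change -0.24, unadjusted p = 0.0188, adjusted p = 0.547 in edgeR), and turned to 0.08 (unadjusted p = 0.364) with the genomic span offset. Cbln1, a secreted organizer of synapses, was low and variable, at 3.5, 1.01 and 5.49 CPM in Control-ASO against 0.656, 1.2 and 1.19 CPM in Snhg11-ASO (-1.71, unadjusted p = 0.0241). C1ql2, a granule cell relative of C1ql3, stood at 21.6 to 33.8 and 20.4 to 30.4 CPM (-0.02, unadjusted p = 0.928).

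**Figure D4:**
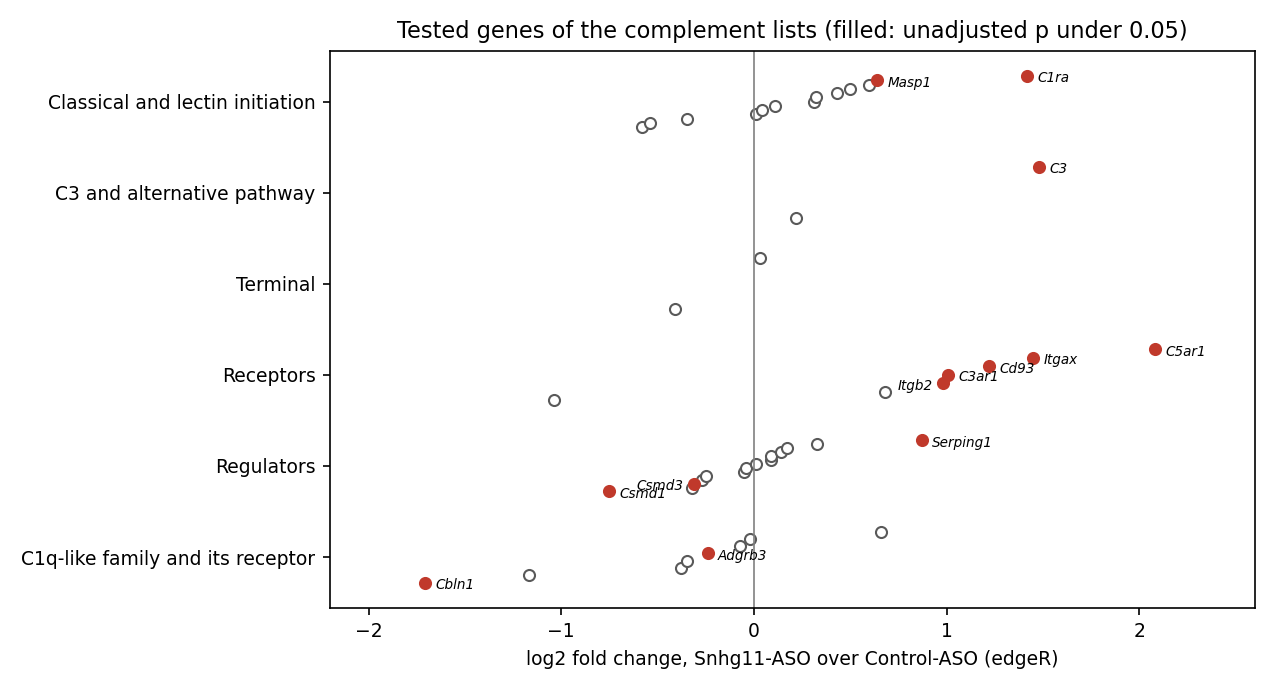
Log2 fold changes of the 46 tested genes of the complement lists by role, the C1q-like family included. Each point is a gene and filled points, named in the plot, have an unadjusted p under 0.05 in edgeR. Filled points among the receptors lie right of 0, as do those of initiation, C3 and Serping1, and those of the C1q-like family, with Csmd1 and Csmd3, lie left of it, although Csmd3 and Adgrb3 turn to 0.07 and 0.08 with the genomic span offset.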

How the data were processed

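RNA-seq of the dorsal hippocampus covered 3 Control-ASO and 3 Snhg11-ASO samples, grouped by their titles. Libraries were made with a stranded total RNA kit after ribosomal depletion and sequenced as paired reads on an Illumina HiSeq2500. The authors aligned them with STAR 2.5.2a to GRCm38 (mm10, per the labels) and deposited raw counts of read pairs per gene, not normalized and not pooled. Rsubread is the counter named in the study's methods, but the files have the format of STAR's own gene counts, which leave out pairs that map to several places or to several genes. The 4 summary lines of each file (43.5% to 51.4% of pairs) entered neither library sizes nor tests. The study removed 1 Snhg11-ASO sample that it does not name, so all 6 were kept here.

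Reverse-strand counts were used, which held 96.2% to 96.8% of the pairs assigned to genes on either strand. Names and positions came from GENCODE M21, which matched 55141 of 55401 identifiers. Genes were filtered with filterByExpr (minimum count 10), scaled with TMM factors (0.982 to 1.02) and compared with the quasi-likelihood test of edgeR, p-values being adjusted after Benjamini and Hochberg over all genes at 0.05 (R 4.3.3, edgeR 4.0.16, limma 3.58.1), and the common biological coefficient of variation was 0.266. CPM are counts scaled to a library total of 1000000 over the genes tested with TMM factors, and log2 CPM used a prior count of 2. The SE of a log2 fold change was taken as its size over the root of F. Single values were tested by two-sided exact permutation over samples. The fits were checked on counts simulated for the same genes with a known set changed and with none changed. Counting error alone was 1.11% to 22.9% of a count for C1q, C3, C4b and the receptors, the highest for C5ar1.

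For each number, the deviations of both samples from the mean of their group were correlated across genes, and r was 0.297, 0.179 and 0.103, each above 0.1, so the numbers were treated as pairs, although Control-ASO replicate 2 with Snhg11-ASO replicate 3 gave 0.188. The pairing comes from this check, and neither the labels nor the methods say what a number marks. The members and gene lists were chosen with earlier results of these data known. The named genes were the members, other complement genes with an unadjusted p under 0.05 or picked as relatives of the members (Itgam, Cr1l, Serping1, C1ql2, C4a), the 2 most abundant genes of each marker list, and the 3 genes most like C1qa, C3, C4b and C1ql3 with a mean of at least 5 CPM. Some genes that this rule names are not reported here by name, although they enter the counts. Alternatives were DESeq2 1.42.0, edgeR with the size factors of DESeq2 or with upper-quartile factors, counts from both strands, no filter, a filter at a mean count of 10, the replicate block, an offset for genomic span alone and with the block, each sample left out, and DESeq2 on both strands without each Snhg11-ASO sample. Replicates 2 and 3 alone and DESeq2 with the block were added after seeing the data.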

Additional observations from a re-analysis of the deposited data

How the results depend on the processing

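Over 20 alternatives, edgeR called none of the 9 members and none of the 46 tested genes of the complement lists, C1q-like family included, under any setting. DESeq2 called 1 of the 9 and 3 of the 46, where it called 1.29% of all genes tested. DESeq2 with the replicate block called 3 and 5, where it called 1.53% of all genes tested. DESeq2 on both strands without Snhg11-ASO replicates 1, 2 and 3 called 1, 2 and 1 of the listed genes, none of them a member. For those both-strand fits the share over all genes was not counted. The log2 fold change of Snhg11, -2.10 with the replicate block in edgeR, passed the threshold in DESeq2 (-2.12), in DESeq2 with the block (-2.10) and in DESeq2 on both strands without Snhg11-ASO replicates 1, 2 and 3 (-2.55, -1.96 and -1.99). With each sample left out in edgeR, the log2 fold change ran from -2.56 to -1.83 for Snhg11, 0.22 to 0.79 for C1qa, -0.11 to 0.62 for C1qb, -0.04 to 0.68 for C1qc, 0.59 to 2.0 for C3, 0.04 to 0.76 for C4b, 0.77 to 1.32 for C3ar1, 0.39 to 2.52 for C5ar1 and -0.34 to 0.37 for Cd59a. C1qb turned to -0.08 and C1qc to -0.04 without Control-ASO replicate 1, and C1qb to -0.11 without Snhg11-ASO replicate 3. On both strands in DESeq2 without Snhg11-ASO replicate 3, C1qb turned to -0.12, C1qc to -0.01 and Cd59a to -0.32, and without replicate 1 Cd59a turned to -0.01. Cd59a turned to -0.02 with upper-quartile factors and with the span offset, to -0.34 without Control-ASO replicate 2, to -0.02 without Snhg11-ASO replicate 1 and to -0.30 without Snhg11-ASO replicate 3, and C1ql3 to 0.04 with replicates 2 and 3 alone. The cause of these turns was not tested. The replicate block changed no call in edgeR. The low counts of C5ar1 limit its precision, and an adjusted p above the threshold does not show that levels were equal.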

Other observations

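All 10 interferon response genes listed were higher in Snhg11-ASO, in each of the 3 same-numbered pairs (17.6% of all genes tested), with 2 at an unadjusted p under 0.05 in edgeR (3.68% of all genes tested), 9 with the replicate block (3.99% of all genes tested), and a median log2 fold change of 1.07. Their summed level was 77.5 to 292 CPM in Control-ASO and 288 to 504 CPM in Snhg11-ASO. Ifit1, an RNA-binding protein of this response, stood at 9.01, 40.7 and 46.7 CPM in Control-ASO and at 60.7, 107 and 66.7 CPM in Snhg11-ASO, without overlap (log2 fold change 1.28, unadjusted p = 0.0541), and Ifit3 at 10.7 to 46.8 and 33.1 to 78.1 CPM.

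Of 7 endothelial genes 6 were above 0 (median 0.5), with the glucose transporter Slc2a1 at 85.5 CPM in Snhg11-ASO replicate 1 and 35.3 to 42.2 CPM elsewhere and the receptor Flt1 at 29.8 to 53.4 and 31.4 to 63.2 CPM. All 9 choroid plexus genes were below 0 (median -0.85), with Kl at 21.8 to 73.8 and 23.2 to 51.0 CPM. None of them was lower in each of the same-numbered pairs. Their sums were 1967, 42.1 and 1277 CPM in Control-ASO against 1337, 133 and 75.1 CPM in Snhg11-ASO. Of 6 general neuronal genes 5 were below 0 (median -0.17), with Camk2a at 841 to 1306 and 909 to 1136 CPM and Snap25 at 943 to 1113 and 884 to 1003 CPM. Of 6 granule cell genes 4 were above 0 (median 0.23), with the adhesion protein Dsp at 53.2 to 71.0 and 57.9 to 93.6 CPM, as were 4 of 6 genes of CA pyramidal cells (median 0.19, 3 of 6 with upper-quartile factors), with Mpped1 at 135 to 147 and 91.8 to 133 CPM and Man1a at 73.7 to 114 and 85.6 to 99.5 CPM. The astrocyte gene Slc1a3 stood at 386 to 502 and 278 to 510 CPM.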
